A study of Mus musculus with 16 samples.

Results

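The comparison set a hairpin against Sirt1 beside a control hairpin in mouse embryonic stem cells that had received no retinoic acid (RA). It used 6 of the 16 arrays, picked by their titles: 3 labelled sh-SIRT1 ethanol and 3 labelled sh-Control ethanol. All 6 held RNA of E14 mouse embryonic stem cells in which a lentiviral vector stably expressed a short hairpin RNA (shRNA). Leukemia inhibitory factor, which holds such cells in the undifferentiated state, was in the medium, and the cells were given the solvent ethanol, that is 0 nM RA, for 2 days. The hairpin therefore was the labelled difference between the groups, called sh-Control and sh-SIRT1 below. The other 10 arrays, 4 of sh-Control and 6 of sh-SIRT1 cells given 20 nM RA for 2 days, served only to look up the same hairpin difference in RNA that had no part in the comparison. Each hairpin comes with its own stable line, so effects of hairpin and line cannot be told apart. Nothing says which arrays of a group came from separate cultures, so p-values measure only array-to-array spread within a group, which may be technical.

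SIRT1 is a deacetylase that consumes NAD. It removes acetyl groups from histones and from transcription factors and cofactors such as p53, FOXO proteins and PGC-1, and so ties gene expression to the metabolic state of a cell. In mouse embryonic stem cells it is abundant and declines as they differentiate.

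Sirt1 was lower on every sh-SIRT1 array. Its probe reads 60 bases of the transcript, shown here because all statements on the depth of the knockdown rest on it (build mm7, chr10:62855795-62855854, minus strand, in lower case throughout):
Sirt1 probe: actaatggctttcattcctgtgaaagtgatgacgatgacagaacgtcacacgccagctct
Levels are given as log2 of processed spot intensity relative to the array's 75th percentile, so that 0 marks a spot at that percentile. Sirt1 stood at 3.85, 3.53 and 3.60 on sh-Control arrays 1, 2 and 3 and at 1.85, 1.89 and 1.83 on sh-SIRT1 arrays 1, 2 and 3. The groups did not overlap, and the sh-SIRT1 arrays lay closer together than the sh-Control arrays. The level fell by 1.81 ± 0.11 (standard error, SE), a 3.5-fold difference with an adjusted p of 0.00365 in limma, a value no gene went below. A probe elsewhere in the transcript gave a difference of -1.85. Some transcript therefore remained well above background in all 3 sh-SIRT1 arrays.

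The arrays were alike in quality, with 60.3 to 65.0% of the spots well above background, a 75th percentile of 684 to 933 intensity units and 0 to 3 saturated spots. Arrays 2 and 3 of each line resembled each other more than array 1: over genes, the SD of the log2 difference was 0.262 between sh-Control arrays 2 and 3 and 0.226 between sh-SIRT1 arrays 2 and 3, against 0.459 to 0.50 for pairs with array 1. Arrays of the same number in the 2 lines deviated together, with correlations of 0.550, 0.436 and 0.487 between their deviations from the group means. For unlike numbers the correlation was 0.388 for sh-Control array 2 with sh-SIRT1 array 3 and 0.0662 for sh-Control array 3 with sh-SIRT1 array 2. It was -0.571 to -0.316 where either array was numbered 1. The submitters' design text speaks of pairs and duplicates but does not say which arrays they are. Whether arrays 2 and 3 are duplicates of each other was therefore not given.

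The hairpin difference reached many genes in both directions, and the falls were larger than the rises. Of 16588 genes tested, 1684 passed (10.2%; limma, Benjamini-Hochberg adjusted p under 0.05): 848 were higher (5.11%) and 836 lower (5.04%) in sh-SIRT1 cells. A difference of at least 1 log2 unit was reached by 117 of the higher (0.705% of genes tested) and 303 of the lower genes (1.83%). The median difference was 0.62 over the genes that rose, -0.81 over those that fell and -0.0037 over all genes tested. For all 1684 the arrays of the groups did not overlap, as for 37.0% of all genes tested. With the array number as a block 3713 genes passed (22.4%; 1757 higher, 10.6%, and 1956 lower, 11.8%), and 1631 of the 1684 were among them.

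The count depended on single arrays, while nearly all signs were kept. It was 3013 without sh-Control array 1, 30 and 63 without sh-Control arrays 2 and 3, and 1487, 45 and 43 without sh-SIRT1 arrays 1, 2 and 3, and in each of these fits at least 1682 of the 1684 genes kept their sign. With arrays 2 and 3 of each line averaged into 1 sample, an alternative added after the data were seen, 0 genes passed in limma (2251 at an unadjusted p under 0.05) and all 1684 kept their sign. Without both arrays numbered 1, 7585 of 17122 genes tested passed.

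**Figure D1:**
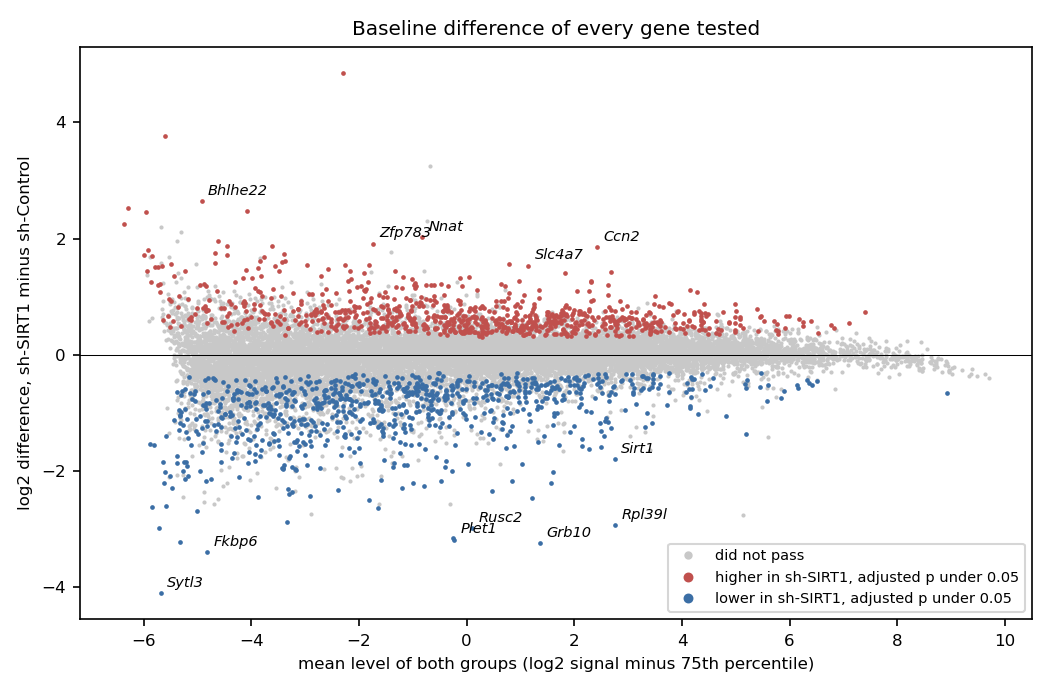
Each point is 1 of the 16588 genes tested, with its mean level over both groups on the horizontal axis (log2 intensity minus the 75th percentile) and the log2 difference, sh-SIRT1 minus sh-Control, on the vertical axis; red and blue points passed at an adjusted p under 0.05. The 303 falls of at least 1 log2 unit outnumber the 117 rises of that size.

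Markers of the stem cell state were present in both lines, as the label says, and none of the 8 read here passed. Pou5f1, the core pluripotency factor, stood at 3.43, 3.08 and 2.93 with the control hairpin and 3.45, 3.47 and 3.54 with the Sirt1 hairpin, a difference of 0.34 ± 0.14 that did not pass (limma adjusted p = 0.174) but did without sh-Control array 1 (adjusted p = 0.0264). Nanog, its partner, stood at 3.17, 3.17 and 3.13 against 3.07, 2.91 and 2.94, a difference of -0.18 (adjusted p = 0.199). Both thus had groups that did not overlap, with Pou5f1 higher and Nanog lower in sh-SIRT1 cells. Zfp42, a zinc finger gene switched off early in differentiation, read 7.65, 7.35 and 7.46 against 7.62, 7.47 and 7.40. Sox2, Esrrb, Sall4, Tdgf1 and Utf1 differed by -0.11, 0.22, -0.08, -0.15 and -0.35, and none of these passed, although Utf1 did with the array number as a block (adjusted p = 0.0407). Without both arrays numbered 1, 7585 of 17122 genes tested passed, so a pass there says little about a single gene. Pou5f1, Nanog, Esrrb and Utf1 were among them (limma adjusted p = 0.0164, 0.0216, 0.0433 and 0.00825), with differences of 0.50, -0.22, 0.22 and -0.40. Of 28 core and naive pluripotency genes tested 0 passed in limma (3 at an unadjusted p under 0.05), and with the array number as a block 3 were higher and 3 lower. Their median was -0.13, a sign that turned under median centring (0.0015).

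Grb10 had the largest fall of any gene measured above background on all 6 arrays. Grb10 encodes an adaptor that restrains insulin receptor signalling and is an imprinted gene. It stood at 3.42, 2.79 and 2.76 with the control hairpin and at -0.35, -0.21 and -0.22 with the Sirt1 hairpin, a fall of 3.25 ± 0.19 (9.51-fold, adjusted p = 0.00365). The sh-SIRT1 arrays were tightly grouped and lay far under every sh-Control array. Grb10 kept its call without any single array.

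Plet1, a surface protein of placental progenitors, stood at 1.06, 1.46 and 1.55 with the control hairpin and -2.73, -1.33 and -1.43 with the Sirt1 hairpin. Its fall of 3.19 ± 0.39 (9.11-fold, adjusted p = 0.0125) was deepest on sh-SIRT1 array 1, as were those of Igsf23, Rusc2 and Rpl39l. Igsf23, an immunoglobulin superfamily gene, read 1.39, 1.25 and 1.33 against -2.80, -1.39 and -1.34 and fell by 3.17 ± 0.40. Rusc2, a gene of vesicle traffic, read 1.68, 1.56 and 1.56 against -2.12, -0.99 and -1.05 and fell by 2.99 ± 0.31. Rpl39l, a copy of a ribosomal protein gene best known from the testis, read 3.92, 4.39 and 4.38 against -0.23, 2.08 and 2.02. Its fall of 2.94 ± 0.64 (adjusted p = 0.0433) therefore had the widest error among the largest falls, and it was lost without each array but sh-SIRT1 array 1. Of the fits without a single array, Plet1, Igsf23 and Rusc2 passed only in those without sh-Control array 1 or sh-SIRT1 array 1.

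Chst8, a sulfotransferase of glycan synthesis, was lower by a steadier margin. It read -0.21, -0.40 and -0.36 with the control hairpin and -3.23, -2.80 and -2.84 with the Sirt1 hairpin, a fall of 2.64 ± 0.14 (adjusted p = 0.00365) that no single array decided. Btbd17 behaved alike, at -2.27, -1.93 and -1.97 against -4.64, -4.23 and -4.41, and fell by 2.37 ± 0.15. Thy1, a surface glycoprotein of T cells, neurons and fibroblasts, read 2.46, 2.41 and 2.49 against -0.59, 0.21 and 0.32 and fell by 2.48 ± 0.25. It lost its call without sh-Control array 2, sh-Control array 3 or sh-SIRT1 array 2. The other large falls were Oas1d (-2.51), Nlrp4a (-2.43), Calb2 (-2.40), Oas1a (-2.35), Sdr42e1 (-2.33), Kdr (-2.32) and Mlana (-2.27). All 7 lost their calls without any of sh-Control arrays 2 and 3 and sh-SIRT1 arrays 2 and 3. Oas1a and Oas1d belong to the oligoadenylate synthetases, which sense double-stranded RNA, Nlrp4a to a gene family of the oocyte, Kdr encodes the main receptor of vascular endothelial growth factor, and Mlana a melanosome protein.

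Some genes left the measurable range in sh-SIRT1 cells. Where no array of a group was well above background, the fold is a lower bound: on each such array the spot was set to the dimmest signal still well above background, or kept where it was brighter. Fkbp6, needed for meiosis and for silencing of transposons in germ cells, read -3.52, -3.03 and -2.82 in sh-Control cells and was at least 5.93-fold lower. Sytl3, a gene of vesicle trafficking, was at least 4.21-fold lower, Trim29 at least 3.97-fold, Dao, D-amino acid oxidase, at least 3.95-fold and Them5 at least 2.97-fold. 1700093K21Rik, Meox2, a homeobox gene of the somites, and D630033O11Rik were at least 2.91-fold, 2.72-fold and 2.68-fold lower. Sytl3 and 1700093K21Rik kept their calls without any single array, while each of the other 6 lost its call in at least 3 of the 6 such fits.

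The promoters of genes that fell held fewer CpG dinucleotides than those of all genes tested. CpG-rich promoters are typical of housekeeping and developmental genes, and CpG-poor promoters of tissue-specific genes. The windows ran from 250 bases before to 50 bases after a start site in RefSeq (GRCm38.p6), and 10946 of the genes tested had such a window. Where a gene had several start sites, the window with the most CG was counted. The 250 bases before the start of 5 genes that fell show the range, with every CG dinucleotide in capitals:
Grb10 (GRCm38.p6, chr11:12037421-12037670, minus strand): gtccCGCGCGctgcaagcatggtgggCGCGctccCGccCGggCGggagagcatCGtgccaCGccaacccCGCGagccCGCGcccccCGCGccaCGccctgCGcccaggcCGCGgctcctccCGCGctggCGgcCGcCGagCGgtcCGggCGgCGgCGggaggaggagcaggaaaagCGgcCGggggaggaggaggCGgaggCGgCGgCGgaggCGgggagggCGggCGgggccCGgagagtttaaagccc
Fkbp6 (GRCm38.p6, chr5:135349914-135350163, minus strand): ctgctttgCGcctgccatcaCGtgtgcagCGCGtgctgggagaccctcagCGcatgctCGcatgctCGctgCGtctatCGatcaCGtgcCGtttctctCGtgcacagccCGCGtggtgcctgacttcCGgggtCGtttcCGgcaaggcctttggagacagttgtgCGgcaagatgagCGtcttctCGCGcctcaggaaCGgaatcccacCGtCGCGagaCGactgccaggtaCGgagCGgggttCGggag
Tex101 (GRCm38.p6, chr7:24672051-24672300, minus strand): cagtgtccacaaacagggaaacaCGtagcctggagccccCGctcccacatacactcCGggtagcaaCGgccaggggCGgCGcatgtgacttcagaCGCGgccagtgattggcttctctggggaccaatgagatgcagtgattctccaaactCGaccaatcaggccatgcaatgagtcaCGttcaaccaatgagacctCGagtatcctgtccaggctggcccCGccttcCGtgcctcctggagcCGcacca
Plet1 (GRCm38.p6, chr9:50494275-50494524, plus strand): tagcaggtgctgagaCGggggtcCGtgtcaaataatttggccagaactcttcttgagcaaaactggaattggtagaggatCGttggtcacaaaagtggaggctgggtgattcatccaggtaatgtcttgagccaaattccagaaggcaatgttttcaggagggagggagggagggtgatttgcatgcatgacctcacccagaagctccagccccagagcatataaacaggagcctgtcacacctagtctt
Oas1a (GRCm38.p6, chr5:120907526-120907775, minus strand): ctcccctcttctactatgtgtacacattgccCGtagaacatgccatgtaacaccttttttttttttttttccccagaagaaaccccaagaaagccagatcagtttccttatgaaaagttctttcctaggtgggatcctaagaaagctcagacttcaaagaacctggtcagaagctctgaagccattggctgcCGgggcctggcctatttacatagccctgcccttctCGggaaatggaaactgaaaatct
The stretch of Grb10 holds 40 CG, that of Fkbp6 29, that of the sperm surface gene Tex101 14, and those of Plet1 and Oas1a 3 each. The median count in the whole window was 21 over all genes tested, 22 over the genes that rose, 17 over those that fell and 12 over those that fell by at least 1 log2 unit, but 19 over those that rose by as much. Windows with 5 or fewer CG made up 10.3% of all, 4.95% of the higher, 16.2% of the lower genes and 22.8% of those lower by at least 1 log2 unit, and 10.0% of the 70 genes higher by at least 1 log2 unit. Dim genes held such windows more often, so the shares were also read within quartiles of mean level. In the dimmest quartile the share was 27.0% of all genes and 24.4% of the lower genes. In the next 3 it was 7.49, 3.98 and 2.67% of all genes against 10.4, 11.6 and 11.9% of the lower genes. These shares are descriptions of genes called in this comparison, without a test. Of all 32851 start sites, each counted by itself, 43.6% had 5 or fewer CG, a share not comparable with those of genes.

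Among the genes that rose, 2 imprinted genes and a matrix gene stood near the top. Nnat, a paternally expressed membrane protein of neurons, read -1.27, -2.06 and -2.18 with the control hairpin and -0.20, 0.40 and 0.37 with the Sirt1 hairpin. It rose by 2.03 ± 0.29 (4.08-fold, adjusted p = 0.0165) and, of the fits without a single array, passed only in those without sh-Control array 1 or sh-SIRT1 array 1. Sgce, the imprinted sarcoglycan gene, read -0.64, 0.35 and 0.29 against 1.38, 1.64 and 1.66 and rose by 1.56 ± 0.28, a call kept, of these fits, only without sh-Control array 1. Ccn2, a secreted matrix protein and target of the YAP coactivator, read 1.14, 1.77 and 1.60 against 3.09, 3.56 and 3.41 and rose by 1.85 ± 0.20 (3.61-fold, adjusted p = 0.0109). Of the single-array fits, it passed only in those without an array numbered 1.

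Zfp783, a zinc finger gene, rose evenly, from -2.50, -2.74 and -2.85 to -0.69, -0.81 and -0.85, by 1.91 ± 0.12 (3.76-fold, adjusted p = 0.00365). St7 was more even, at -2.61, -2.55 and -2.59 against -0.97, -1.07 and -1.09, and rose by 1.54 ± 0.08 (adjusted p = 0.00365). Neither call was lost without any single array. Slc4a7, a sodium bicarbonate cotransporter, read 0.73, 0.13 and 0.28 against 1.79, 2.00 and 1.95 and rose by 1.53 ± 0.17. Others among the 15 largest rises were Tshz1 (1.74), Stxbp6 (1.69), Zfp800 (1.62), Galnt7 (1.61), Fut7 (1.60), Svop (1.55), Irx2 (1.52) and Camk1 (1.50). Tshz1 and Irx2 encode transcription factors of developmental patterning, Galnt7 and Fut7 enzymes of glycan synthesis, and Stxbp6 and Svop proteins of vesicles. Slc4a7 and these 8 each lost their call in at least 3 of the 6 fits without an array.

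Bhlhe22, a transcription factor of neurons, was not well above background on any sh-Control array and was at least 3.68-fold higher in sh-SIRT1 cells, at -2.83, -3.87 and -4.10. The bounds of the next 7 were smaller: Cfap74 at least 1.96-fold, Gata3, a trophoblast and T-cell factor, 1.72-fold, Tomm20l 1.70-fold, Cd274, the immune checkpoint ligand PD-L1, 1.66-fold, Olfr658 1.57-fold, Ntn5 1.51-fold and Cib2 1.46-fold. Cd274 had a difference of -0.023 after normexp background correction, so its direction was not settled. Each of these 8 lost its call in at least 3 of the 6 fits without an array.

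**Figure D2:**
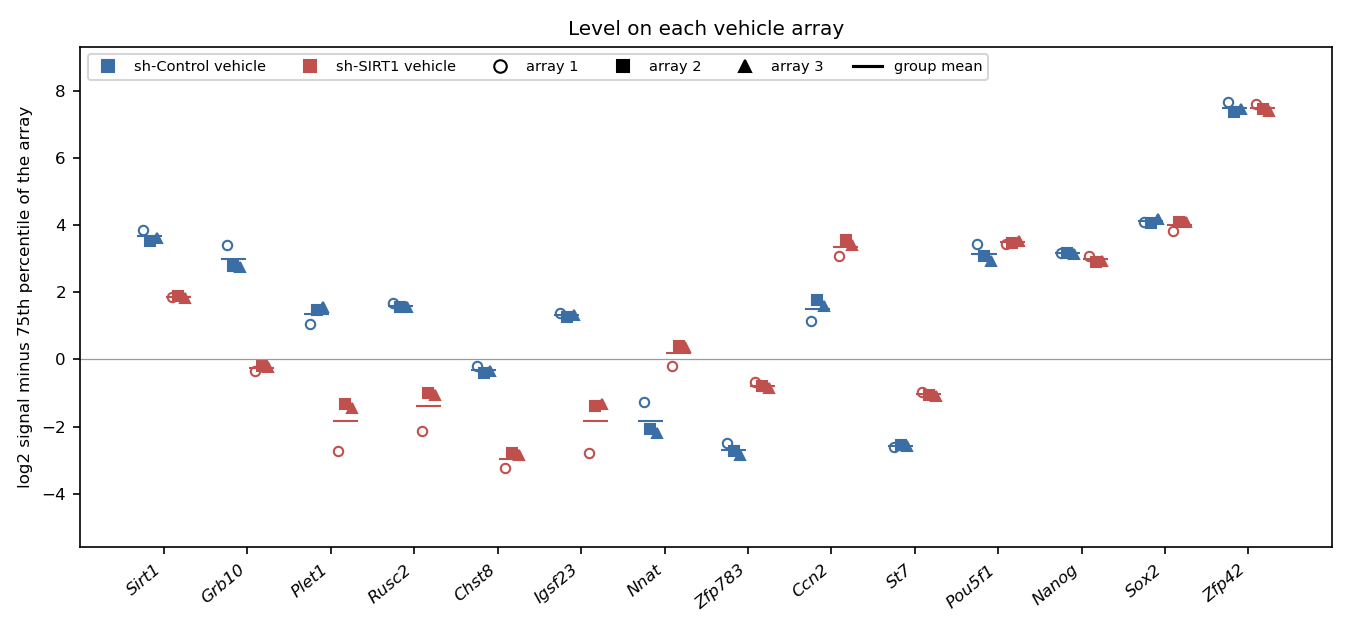
Levels (log2 intensity minus the 75th percentile) of 14 genes on the 3 sh-Control (blue) and 3 sh-SIRT1 (red) vehicle arrays, with array 1 as an open circle, arrays 2 and 3 as a filled square and triangle, and a line at each group mean. The groups are apart for Sirt1 and for the genes named for their size, arrays 2 and 3 nearly coincide, and Sox2 and Zfp42 overlap between the groups.

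Named lists of genes were then counted. Of their 955 genes 780 were tested and 117 passed, beside 10.2% of all genes. Without sh-Control array 2 or 3, or sh-SIRT1 array 2 or 3, 4, 9, 6 and 6 members over all 36 lists passed, at most 2 in any list, so that the counts below rest on each of these arrays. With the slide as a fixed block 35 members passed, and with the array number as a block 240 did, against 22.4% of all genes. Values within slide 1 set sh-SIRT1 array 2 against sh-Control array 1, and those within slide 3 set sh-SIRT1 array 3 against sh-Control array 2. Each is 1 array against 1, with unlike array numbers. No other slide held vehicle arrays of both lines, so the fixed slide block rests on these same pairs. Of the members named below, Amn, Krt8, Impact and Parp9 did not pass with the array number as a block (limma adjusted p = 0.057, 0.0505, 0.0521 and 0.0535).

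Some genes of the formative state, in which stem cells prepare to leave naive pluripotency, were lower. Of 15 tested 4 fell and 0 rose (26.7%, against 10.2% of all genes), with a median of -0.46 and 4 positive differences. With the array number as a block 6 fell and 1 rose. Lef1, an effector of Wnt signalling, read 1.75, 1.14 and 1.03 with the control hairpin and 0.29, -0.09 and -0.14 with the Sirt1 hairpin and fell by 1.28 ± 0.23. Pou3f1 fell by 0.65, Etv5, an effector of FGF signalling, by 0.60 and Dnmt3b, a de novo DNA methyltransferase, by 0.56 ± 0.07. The Dnmt3b arrays were closely grouped, at 3.72, 3.76 and 3.69 against 3.20, 3.17 and 3.13. Among genes of the 2-cell-like state, a rare state of these cultures, 1 of 6 rose, Sp110 (0.82), a share of 16.7% against 10.2% of all genes. With the array number as a block 3 rose, where 22.4% of all genes passed. The Sp110 probe is placed on chr8_random (mm7), which is not counted with chromosome 8 below. The list median was 0.73, but 2.30 within slide 1, and the array medians of the list overlapped between the groups. Another 11 of its 17 genes were not tested.

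Primitive endoderm factors, genes of an extraembryonic lineage that stem cells can enter, included more falls. Of 21 tested 8 fell and 0 rose (median -0.62, and -0.43 and -0.55 within slides 1 and 3), so that 38.1% passed, against 10.2% of all genes. In 14 the groups did not overlap, against 37.0% of all genes. Lrp2, the endocytic receptor megalin, read 1.62, 1.51 and 1.49 with the control hairpin and -0.01, -0.07 and -0.12 with the Sirt1 hairpin and fell by 1.61 ± 0.08 (adjusted p = 0.00365). Its partners cubilin (Cubn) and amnionless (Amn), with which it takes up proteins in the visceral endoderm, fell by 1.51 and 0.97. Rbp4, the plasma carrier of retinol, fell by 1.87 ± 0.36, from -1.13, -0.96 and -1.04 to -3.77, -2.51 and -2.46. The lineage factors Gata6 and Sox17 fell by 0.96 and 0.85, and Pth1r and Emb by 0.62 and 0.52. Foxa2, which acts with them, differed by -1.12 and did not pass (adjusted p = 0.0761), and 4 members had positive differences, none of which passed. Only Lrp2 among the 5 largest kept its call without any single array.

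Of 15 basement membrane genes, whose products this endoderm lays down, 4 fell and 0 rose (median -0.34), so that 26.7% passed, against 10.2% of all genes. Nid1, the linker protein nidogen, read 3.01, 3.35 and 3.38 with the control hairpin and 1.46, 2.03 and 2.04 with the Sirt1 hairpin and fell by 1.41 ± 0.20. Serpinh1, a collagen chaperone, fell by 0.75, Lama1, a laminin chain, by 0.75 ± 0.08, and Nid2 by 0.42. In 10 of the 15 the groups did not overlap, against 37.0% of all genes.

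Other lineages gave mixed counts. Of 22 trophoblast genes 4 rose and 2 fell. Peg10, an imprinted gene the placenta requires, rose by 1.75, Gata3 as given above, the keratin Krt8 by 0.72 and the homeobox gene Esx1 by 0.71. Peg10 was well above background on only 1 sh-Control array, so the size of its rise is uncertain. Plet1 fell as given above and Ascl2, a factor of trophoblast progenitors, by 0.80. The trophoblast median of -0.13 turned to 0.01 under median centring and was 0.32 within slide 1. Of 18 neuroectoderm genes 2 rose, Bhlhe22 and Lhx2 (0.87), and the neuronal tubulin Tubb3 fell by 0.41. Of 18 streak and mesoderm genes 2 fell, Kdr and the blood factor Tal1 (-0.93), and 0 rose (median -0.41, but -0.03 within slide 1). The share that passed was 27.3% for trophoblast, 16.7% for neuroectoderm and 11.1% for streak and mesoderm genes, against 10.2% of all genes. With the array number as a block 4 trophoblast genes rose and 7 fell, 4 neuroectoderm genes rose and 4 fell, and 1 mesoderm gene rose and 7 fell.

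Germ line and meiosis genes had the most falls of any list. Of 34 tested 10 fell and 0 rose (median -0.54, and -0.26 and -0.58 within slides 1 and 3), so that 29.4% passed, against 10.2% of all genes. With the array number as a block 17 fell and 2 rose. Tex101 read 0.73, 0.47 and 0.53 with the control hairpin and -1.68, -1.23 and -1.18 with the Sirt1 hairpin and fell by 1.94 ± 0.16 (adjusted p = 0.00772). Piwil4, which binds the small RNAs that silence transposons, fell by 1.96 ± 0.42, Rnf17 by 1.33 ± 0.26 and Tdrd12 by 1.14 ± 0.13, the last from 2.96, 3.24 and 3.23 to 1.82, 2.10 and 2.09. All 3 act, with Fkbp6, in that piRNA pathway. Sycp2, Hormad2 and Syce1, which build the synaptonemal complex or its axes, also fell, as did Dazl and Kit. The groups did not overlap in 24 of the 34, against 37.0% of all genes, and 5 members had positive differences, of which 0 passed. Of the single-array fits, Tex101 lost its call only in that without sh-Control array 2, and Piwil4 kept its call only in that without sh-Control array 1.

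**Figure D3:**
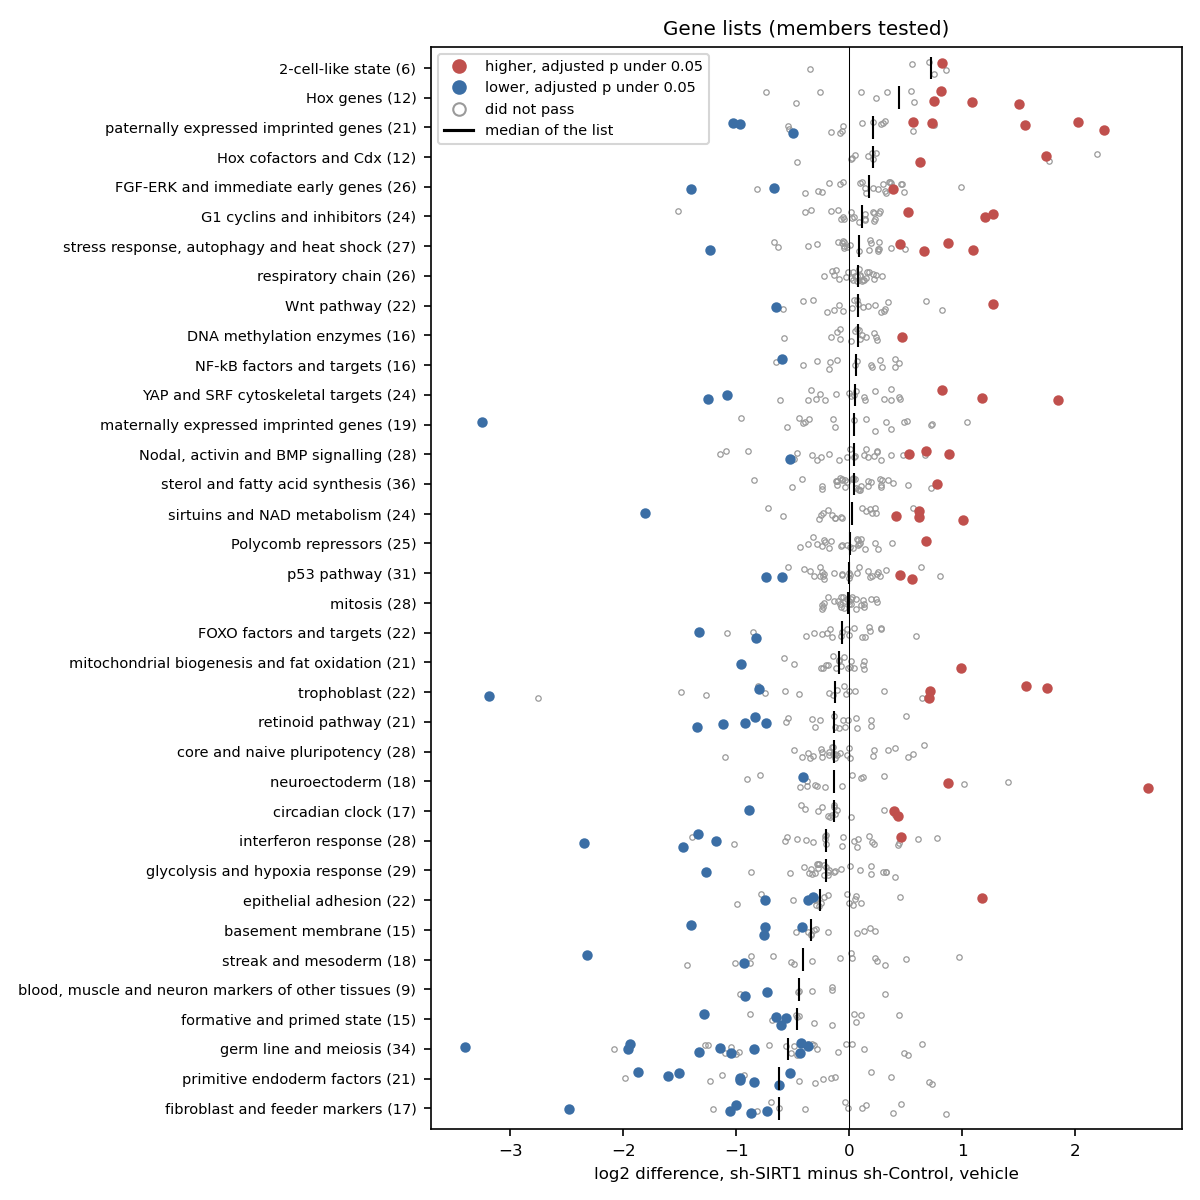
Log2 difference, sh-SIRT1 minus sh-Control in vehicle, of every tested member of 36 named lists, sorted by list median (black line), with members that rose in red, members that fell in blue and the rest open. Fibroblast, primitive endoderm and germ line genes lie lowest, with medians of -0.62, -0.62 and -0.54, and the 2-cell-like and Hox genes lie highest, with medians of 0.73 and 0.44 over 6 and 12 members. For both the 2-cell-like and the Hox list the array medians overlapped between the groups.

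Imprinted genes, expressed from the allele of 1 parent, were counted by parent of origin. Of 21 paternally expressed genes 5 rose and 3 fell (median 0.21), and of 19 maternally expressed genes 0 rose and 1 fell, Grb10. The shares that passed were 38.1% and 5.26%, against 10.2% of all genes. Nap1l5 rose from -7.63, -7.53 and -7.32 in sh-Control cells, none of them well above background, to -5.20, -5.39 and -5.13, at least 1.18-fold higher. Nnat and Sgce rose as given above, the splicing gene Zrsr1 by 0.73 ± 0.09 and Impact, an inhibitor of the GCN2 kinase, by 0.56. Peg12 fell by 1.03, Dio3, which inactivates thyroid hormone, by 0.97, and Peg3 by 0.50. With the array number as a block 8 paternally expressed genes rose and 3 fell, and of the maternally expressed 3 rose and 3 fell. In these arrays a change of allele and a change of level cannot be told apart.

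Genes that carry or convert retinoids gave falls and no rise in cells that had received no RA. Of 21 tested 5 fell and 0 rose (23.8%, against 10.2% of all genes), with a median of -0.13 that turned to 0.0027 under median centring. Among them the cellular RA binding proteins Crabp1 and Crabp2 fell by 1.12 ± 0.22 and 0.83 ± 0.14. Crabp1 read -1.65, -0.96 and -0.91 against -2.49, -2.25 and -2.14. Dhrs3, which returns retinaldehyde to retinol, fell by 1.34 ± 0.17 and Stra6, the cell surface receptor of the Rbp4-retinol complex, by 0.73 ± 0.13. With the slide as a fixed block 1 of the 21 passed, and with the array number as a block 7 fell and 1 rose.

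Of 39 Hox genes, which pattern the body axis, 12 were bright enough to be tested and 4 rose: Hoxd12 (at least 1.36-fold), Hoxa7 (1.09 ± 0.22), Hoxb9 (0.81 ± 0.12) and Hoxb13 (0.75 ± 0.17). Hoxa7 read -2.25, -2.55 and -2.47 with the control hairpin and -0.85, -1.59 and -1.56 with the Sirt1 hairpin. The median over the 12 was 0.44 (0.39 with Hoxd12 at its bound), but with dim probes kept the median of 38 Hox genes was -0.15 and 0 passed in limma. Of 12 Hox cofactors and Cdx genes 2 rose, Tshz1 and Pbx4 (0.63), and 4 did with the array number as a block. The share that passed was 33.3% for the Hox and 16.7% for the cofactor and Cdx genes tested, against 10.2% of all genes.

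Sirtuins and the enzymes of NAD metabolism were read next, since SIRT1 consumes NAD. Of 24 tested 4 rose, and only Sirt1 fell, so that 20.8% passed, against 10.2% of all genes. The mitochondrial sirtuin Sirt4 read 0.20, 0.38 and 0.38 with the control hairpin and 0.88, 0.99 and 0.93 with the Sirt1 hairpin and rose by 0.62 ± 0.09. Nmnat1, the nuclear enzyme that makes NAD, read 2.43, 2.38 and 2.42 against 3.01, 3.05 and 3.04 and rose by 0.62 ± 0.07. Nudt12, which cleaves NADH, rose by 1.00 ± 0.09 and Qprt, of NAD synthesis from tryptophan, by 0.42. The list median of 0.02 turned to -0.10 after normexp correction.

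Of 31 p53 pathway genes 2 rose and 2 fell. Mdm2, which degrades p53, rose by 0.45 and Apaf1, the scaffold of the apoptosome, by 0.56, while Tigar, which lowers glycolytic flux, fell by 0.74 and Trp53i11 by 0.60. Of 22 FOXO genes 2 fell, Trim63 (-1.33) and Foxo6 (-0.82), and of 16 NF-kB genes 1 fell, Ier3 (-0.59). Of 17 circadian clock genes 2 rose, the casein kinase genes Csnk1d (0.43, with 2 of its 3 other probes of the opposite sign) and Csnk1e (0.40), and the repressor Nfil3 fell by 0.88. Of 25 Polycomb genes Phf19 rose by 0.68 ± 0.08. The share that passed was 12.9% for p53, 9.09% for FOXO, 6.25% for NF-kB, 17.6% for the clock and 4.00% for Polycomb, against 10.2% of all genes. With the array number as a block 4 p53 genes rose and 4 fell, 2 FOXO genes rose and 4 fell, 3 NF-kB genes rose and 2 fell, and 1 Polycomb gene rose and 1 fell.

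Energy metabolism and division genes gave few calls. Of 21 genes of mitochondrial biogenesis and fat oxidation Acadl, an acyl-CoA dehydrogenase, rose by 0.99 and the coactivator Ppargc1b fell by 0.96 ± 0.10. Of 26 respiratory chain genes 0 passed in limma (3 at an unadjusted p under 0.05, median 0.08), nor did any of 28 mitosis genes (4 at an unadjusted p under 0.05, median -0.01, and 0.12 under median centring), and 0 of either passed with the array number as a block. Cdc20 of the latter read 6.64, 6.62 and 6.64 against 6.72, 6.62 and 6.59. Of 29 glycolysis and hypoxia genes Pfkp, a phosphofructokinase, fell by 1.27 ± 0.18, and with that block 3 rose and 5 fell. Of 24 G1 genes 3 rose, the inhibitor Cdkn2a by 1.27, Ccne2, a cyclin of S phase entry, by 1.20 and E2f3 by 0.52, and 0 fell (4 and 1 with that block). The share that passed was 9.52% for mitochondrial biogenesis and fat oxidation, 3.45% for glycolysis and hypoxia and 12.5% for G1 genes, against 10.2% of all genes.

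Signalling genes were counted by pathway. Of 26 FGF-ERK and immediate early genes Egr1 fell by 1.40 ± 0.28 and Egr2 by 0.67, and Dusp4, a phosphatase of ERK, rose by 0.39, although its other probe differed by -0.01. In the Wnt list of 22 the target Sp5 rose by 1.27 ± 0.28, with sh-SIRT1 array 1 the highest (2.28, against 1.30 and 1.25 on arrays 2 and 3), and Tcf7l2 fell by 0.65. In the Nodal, activin and BMP list of 28 the convertase Furin rose by 0.88, Smad1 by 0.68 and the receptor Bmpr2 by 0.53, and the BMP target Id3 fell by 0.52. Of 24 YAP and SRF targets 3 rose, Ccn2, Ccn1 (1.18 ± 0.16) and Anxa3 (0.82 ± 0.08), and 2 fell, among them the contractile gene Myl9 (-1.08). Ccn2 and Ccn1 are the targets most used to read YAP activity. Of 28 interferon response genes 4 fell, Oas1a, Parp12 (-1.47 ± 0.11), Oas2 (-1.34) and Ifitm1 (-1.18), and Parp9 rose by 0.45. Of 22 epithelial adhesion genes Dsg2, a desmosomal cadherin, rose by 1.18 ± 0.13, and 3 fell, among them Grhl2 (-0.74) and Spint1 (-0.36). The share that passed was 11.5% for FGF-ERK, 9.09% for Wnt, 14.3% for Nodal, activin and BMP, 20.8% for YAP and SRF, 17.9% for interferon and 18.2% for epithelial adhesion genes, against 10.2% of all genes. With the array number as a block the rises and falls were 8 and 3 for FGF-ERK, 5 and 2 for Wnt, 5 and 5 for Nodal, activin and BMP, 6 and 4 for YAP and SRF, and 2 and 8 for interferon genes.

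Markers of fibroblasts, the cells often used as feeders for stem cells, were read beside the endoderm and basement membrane genes. Of 26 on the array 17 were tested, 5 had positive differences and 5 fell (9, and 1 rose, with the array number as a block): Thy1, Timp3 (-1.05), Pdgfc (-1.01), Col5a1 (-0.87) and Fbln1 (-0.73). The list median was -0.62 (-0.05 within slide 1 and -0.52 within slide 3). Their summed linear level ran from 57.8 to 81.0 in sh-Control and from 55.9 to 70.5 in sh-SIRT1 cells, in units of the 75th percentile, so the groups overlapped. Col3a1, Col6a1, Lum, Postn and Fap did not pass the filter on dim probes and were not tested. The defining Col1a1 and Vim differed by -0.62 and -0.01 and did not pass. Of 9 tested markers of blood, muscle and neurons 2 fell, Rbfox3 (-0.92) and Myl7 (-0.73). The share that passed was 29.4% for the fibroblast list and 22.2% for these markers, against 10.2% of all genes. In bulk RNA fewer cells of a type and less RNA per cell cannot be told apart, and the part of such cells in the other results was not tested.

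Genes of chromosome 8 were higher as a group in sh-SIRT1 cells. They made up 5.28% of the genes tested and 254 of the 848 that rose. Of its 876 genes 29.0% were higher, against 5.11% of all genes, and 16 genes were lower, with a median difference of 0.37. Relative to the mean of the sh-Control arrays, the median of the chromosome was -0.03, 0.00 and 0.03 on these and 0.44, 0.33 and 0.31 on sh-SIRT1 arrays 1, 2 and 3. All 13 of its 10-Mb bins had medians above 0, from 0.18 to 0.62. Without chromosome 8, 594 genes rose and 820 fell.

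Stress, autophagy and heat shock genes that rose lay on this chromosome. Of 27 tested 4 rose, the antioxidant enzymes Nqo1 (1.09 ± 0.14) and Hmox1 (0.87 ± 0.09), the chaperone Dnajb1 (0.66) and the lysosomal protein Lamp1 (0.45), and all 4 lie on chromosome 8, as does no other tested member. Xbp1, a factor of the unfolded protein response on chromosome 11, fell by 1.23 ± 0.10. In this list 18.5% passed, against 10.2% of all genes. Galnt7, Pbx4, Smad1 and Dusp4, given above as higher, also lie on chromosome 8, while Calb2, Sdr42e1 and Tubb3 lie there and fell.

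A stretch of chromosome 12 stood out in the same way, and was delimited after its values were seen. From Numb to Gtf2a1 (mm7, chr12:81790783-89037393) 68 genes were tested, of which 32 rose, 1 fell (Tmem63c, -1.20) and 55 had positive differences, with a median of 0.51 (1.42-fold). The median was 0.00, -0.02 and 0.00 on the sh-Control arrays and 0.45, 0.51 and 0.50 on the sh-SIRT1 arrays, which did not overlap. The 20 genes before Numb and the 20 after Gtf2a1 had medians of -0.04 and -0.02. Dlst, a subunit of the oxoglutarate dehydrogenase of the citric acid cycle, rose by 0.89 ± 0.07 (adjusted p = 0.00802), from 3.35, 3.34 and 3.25 to 4.15, 4.21 and 4.24. Acyp1, an acylphosphatase, rose by 1.27 ± 0.12, from 1.46, 1.80 and 1.79 to 3.06, 2.88 and 2.91. Irf2bpl, Zc2hc1c, Zfp410, Pomt2, a protein O-mannosyltransferase, and the kinase Nek9 rose by 1.20, 1.13, 0.92, 0.90 and 0.65. Esrrb, a pluripotency factor within the stretch, differed by 0.22 and did not pass. Within slides 1 and 3, each 1 array against 1, the median was 0.49 and 0.51. On the RA arrays it was 0.37, with 57 of 65 genes positive and 36 passing (background 18.2%). Outside chromosome 8 and this stretch, 222 bins had medians from -0.29 to 0.24.

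**Figure D4:**
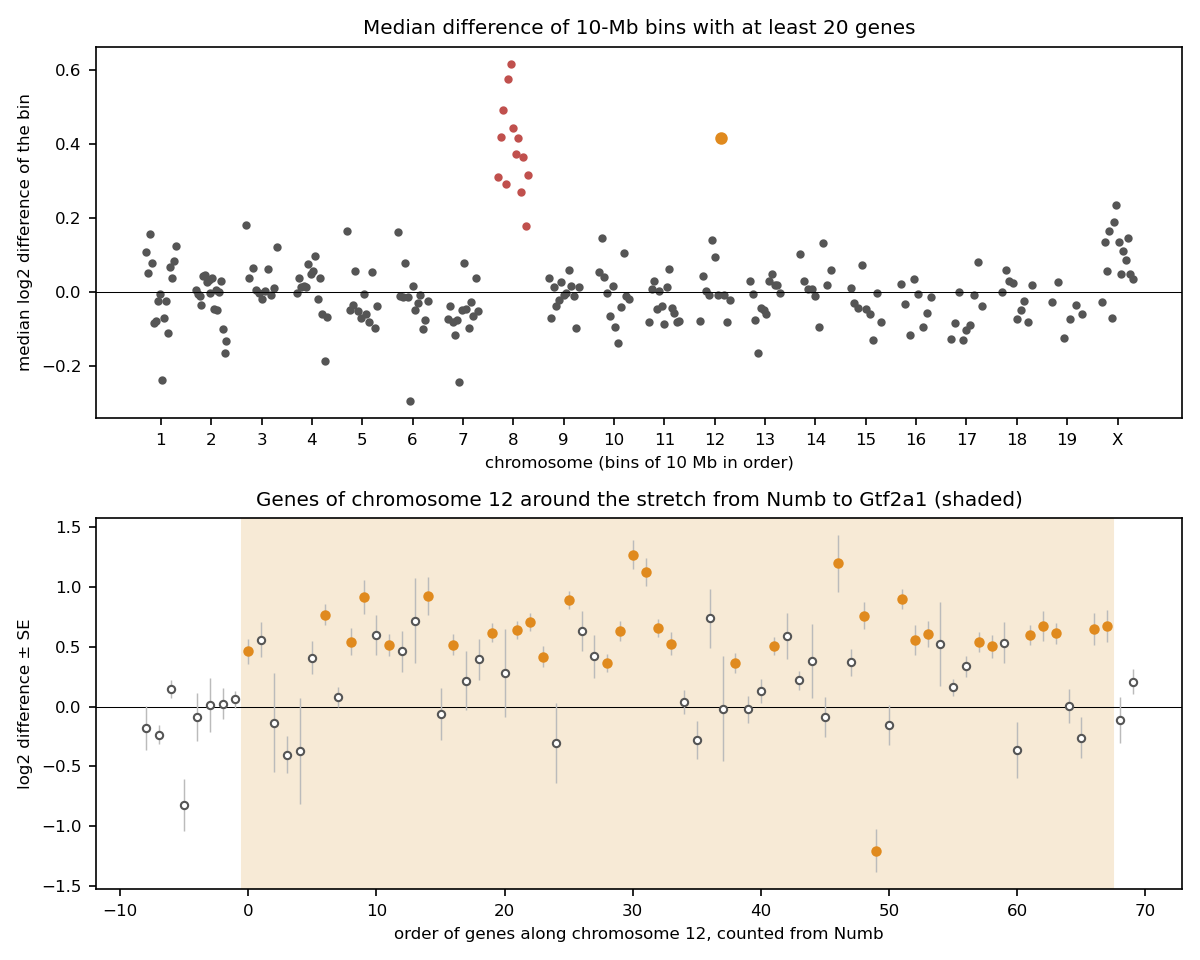
Top, the median log2 difference (sh-SIRT1 minus sh-Control, vehicle) of each 10-Mb bin with at least 20 tested genes, by chromosome, with chromosome 8 in red and the bin of the chromosome 12 stretch in orange; bottom, single genes of chromosome 12 with their SE, in order, with genes that passed filled. All 13 bins of chromosome 8 lie between 0.18 and 0.62, and the stretch from Numb to Gtf2a1 has a median of 0.51 between neighbours near 0.

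The same hairpin difference was looked up on the 10 arrays of cells given RA, which shared no array with the comparison. Of the 1684 genes 1617 were tested there, 1282 (79.3%) had the same sign and 531 (32.8%) also passed in that direction, against 58.6% and 12.8% of all 16084 genes tested in both. The shares were 83.6% and 37.3% for genes that rose and 74.7% and 28.2% for those that fell. In the RA comparison 3117 of 17147 genes passed (18.2%), and 575 genes passed in both, 35.6% of the vehicle list and 20.0% of the RA list, 44 of them with opposite signs. Arrays 2 to 4 of the sh-Control RA group differ from its array 1. With array 1 alone 82.4% of the called genes had the same sign, against 65.3% of all genes tested in both. Without chromosome 8, 76.8% of the called genes had the same sign and 30.1% also passed in that direction. The shares of all genes without chromosome 8 are not given.

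Of the 30 genes with the largest differences 27 had the same sign under RA and 19 passed in it. Grb10 differed by -3.61 (adjusted p = 0.000247), and Igsf23 and Rpl39l differed by -2.73 each. Nnat differed by 6.50 under RA, against 2.03 in vehicle, but by 2.14 with sh-Control RA array 1 alone, and the change between vehicle and RA did not pass (adjusted p = 0.0942). Rusc2, at -0.03, Plet1, at -0.78, and Chst8, at -0.71, did not pass there, and the test of the change between vehicle and RA passed for all 3 (adjusted p = 0.0026, 0.0243 and 0.0266). With sh-Control RA array 1 alone they differed by -0.91, -1.32 and -1.56, and Rusc2 and Plet1 passed (adjusted p = 0.0196 and 0.0139). Slc4a7 had the opposite sign and passed, at -1.64 (adjusted p = 0.000307). The test of the change reuses the vehicle arrays on which the 30 genes were picked, so it leans towards a smaller difference under RA. The retinoid carrier Crabp2 fell by 0.83 in vehicle and differed by 2.86 under RA (adjusted p = 0.000341).

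**Figure D5:**
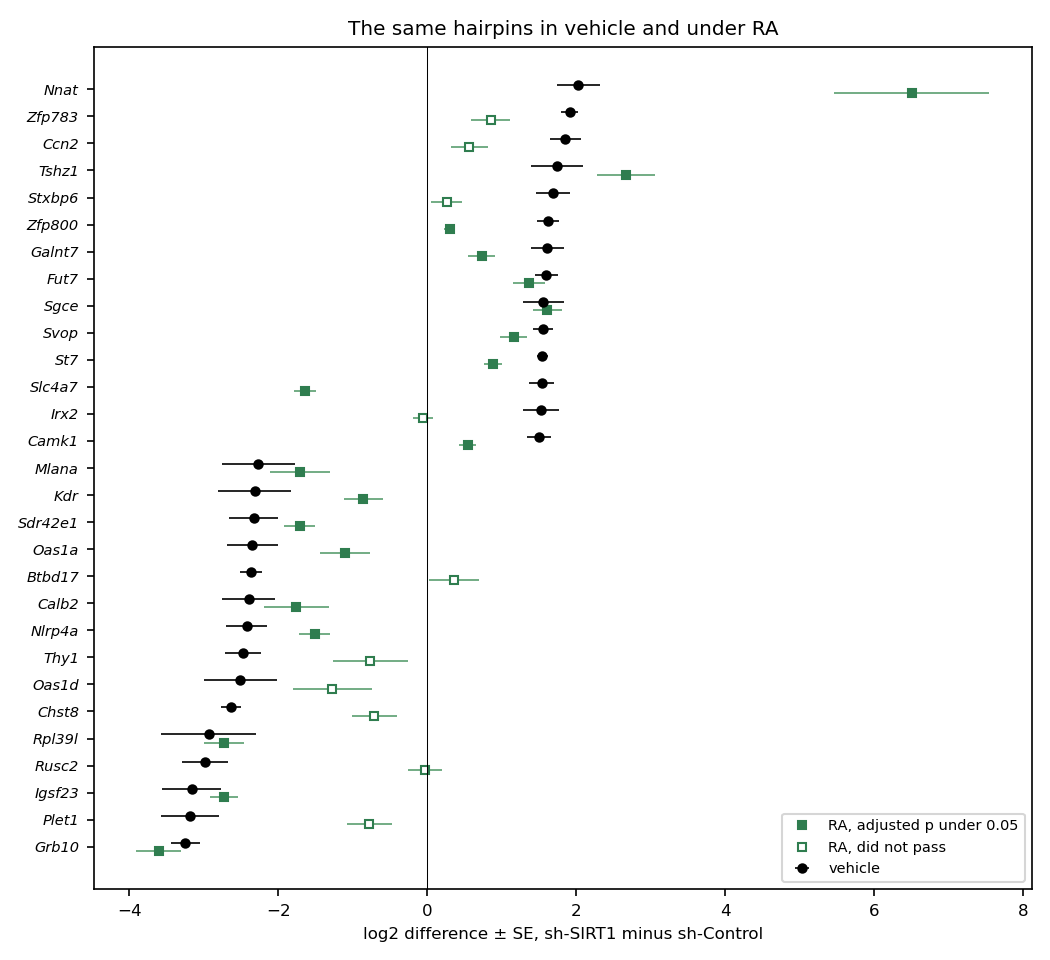
Log2 difference ± SE, sh-SIRT1 minus sh-Control, of 14 of the largest rises and the 15 largest falls in vehicle (black circles) and of the same genes on the RA arrays (green squares, filled where the adjusted p was under 0.05). Of the 29 squares 26 lie on the side of their circle, and those of Slc4a7, Irx2 and Btbd17 cross to the other side. The squares of Grb10, Nnat, Tshz1 and Sgce lie farther out than their circles. With sh-Control RA array 1 alone the value of Nnat is 2.14 in place of 6.50.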

How the data were processed

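RNA of E14 cells was hybridised to 1-colour Agilent whole mouse genome arrays. Per the submitters' processing notes, spots were read with Agilent Feature Extraction 9.5. The deposited values are processed Cy3 intensities on a linear scale, background-subtracted per the file headers, and the authors' value table equals them on all 45018 spots, with no centring. From these deposited intensities, log2 values were computed and the 75th percentile over non-control spots of each array was subtracted. Control spots and outlier spots were left out, and a probe was kept where it was well above background on every array of at least 1 vehicle group, 24759 of 41174 probes. Each gene is read by 1 probe. Names come from accessions or symbols matched to RefSeq (GRCm38.p6) where possible, and 13714 of 16588 genes had a symbol. Probe positions are those of the files (mm7).

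limma 3.58.1 in R 4.3.3 compared 3 with 3 vehicle arrays (lmFit and eBayes, two-sided, Benjamini-Hochberg over all genes, threshold 0.05). Members and lists were chosen with earlier results of these data known. Named were Sirt1 and stem markers, the 15 largest rises and 15 largest falls among called genes well above background on all 6 arrays, without overlap and with other probes of the same sign, 8 genes each way with the largest lower bound, and up to 5 called members of a list each way (the 2 highest where none passed). Other members, families and the chromosome 12 stretch were named after their values were seen. Array numbers were taken to pair the arrays, since all 3 same-number correlations, 0.550, 0.436 and 0.487, were over 0.1. They do not settle how arrays 2 and 3 pair, since sh-Control array 2 with sh-SIRT1 array 3 reached 0.388. The counts with the array number as a block therefore rest on an assumed pairing. Alternatives changed background correction, scaling, filters, the probe rule, the variance model, blocks for array number and slide, and the arrays. On simulated data with 100 genes changed by 1 and 100 by 2 log2 units among 16588, the fit recovered 59 and 80. Some genes of these lists are not reported here.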

Additional observations from a re-analysis of the deposited data

Results flagged for a closer look

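For 10 of 30 genes read, the hairpin difference under RA was tested as different from that in vehicle (interaction term, limma on all 16 arrays, Benjamini-Hochberg adjusted). They were 6 rises and 4 falls, and in 3 of them, Slc4a7, Irx2 and Btbd17, the sign under RA was the opposite. The change, RA minus vehicle, was -3.17 for Slc4a7 (adjusted p = 4.28e-05), whose difference went from 1.53 to -1.64. It was -1.58 for Irx2 (adjusted p = 0.00893), -1.43 for Stxbp6 (adjusted p = 0.0329) and -1.32 for Zfp800 (adjusted p = 0.000953). Camk1 changed by -0.96 (adjusted p = 0.0182) and St7 by -0.66 (adjusted p = 0.0482). Among the falls, the change was 2.95 for Rusc2 (adjusted p = 0.0026), which went from -2.99 to -0.03. It was 2.72 for Btbd17 (adjusted p = 0.00911), 2.41 for Plet1 (adjusted p = 0.0243) and 1.92 for Chst8 (adjusted p = 0.0266). All 10 were picked for large vehicle differences, and the same vehicle arrays enter this test. It therefore leans towards a smaller difference under RA. The share of all genes with such a change is not given. In addition, sh-Control RA arrays 2 to 4 differ from array 1 of that group. With array 1 alone the RA difference was -0.91 for Rusc2, -1.32 in place of -0.78 for Plet1 and -1.56 in place of -0.71 for Chst8. It was 1.08 in place of 0.26 for Stxbp6, 0.88 in place of 0.54 for Camk1, 0.69 in place of 0.35 for Btbd17 and -0.30 in place of -0.06 for Irx2. For Slc4a7, Zfp800 and St7 it was -2.06, 0.33 and 0.93. The change between vehicle and RA was not tested with array 1 alone.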

How the results depend on the processing

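The count of 1684 genes became 2577 with normexp correction, 438 with dim probes kept, 3713 with the replicate block, 342 with the slide as a fixed block, 7585 without both arrays numbered 1 and 0 with arrays 2 and 3 averaged, and 30 to 3013 without 1 array. Median centring moved the share of higher calls from 50.4 to 66.0% and the median of all genes to 0.13, and the slide block gave 31.9%. Sirt1 passed in 20 of 21 alternatives. Its difference was -1.96 within slide 1, -1.85 with arrays 2 and 3 averaged (adjusted p = 0.201) and -1.87 to -1.71 without 1 array. The 531 genes that also passed under RA became 265 with the slide block, 172 with normexp, 1342 without both arrays numbered 1, 0 with the averaged arrays and 13 to 744 without 1 vehicle array. Cd274 reversed with normexp (a difference of -0.023, adjusted p = 0.904). The 30 largest differences kept their sign in every setting. The last 2 alternatives on arrays 1, 2 and 3 were added after the data were seen, and the cause of these changes was not tested. Spots near background limit dim genes: 60.3 to 65.0% of spots were well above it.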

Other observations

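The families below were picked after their values were seen and have no test of their own. Of 8 oligoadenylate synthetase genes tested, 4 fell and 0 rose, a share above the 10.2% of all genes, with a median of -1.44. Oas1f fell by 2.22 ± 0.35 (limma adjusted p = 0.0194), beside Oas1a, Oas1d and Oas2. Oas1a and Oas1d lost their calls in each fit without sh-Control array 2 or 3 or sh-SIRT1 array 2 or 3. Oas2 kept its call in only 1 of the 6 fits without an array. Of 7 Nlrp genes 2 fell (28.6%, against 10.2% of all genes), Nlrp4a and Nlrp4c, the latter by 1.98 ± 0.27. Nlrp4a lost its call in the same fits as Oas1a. Of 42 potassium channel genes 4 fell and 0 rose, a share of 9.52%, near the 10.2% of all genes. Kcna1, a voltage-gated channel, was at least 2.66-fold lower, and Kcnh8 fell by 1.83 ± 0.19.

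Of 75 glycosyltransferase and sulfotransferase genes 9 fell and 5 rose, 18.7% against 10.2% of all genes. Galnt16 fell by 1.51 ± 0.08 and St6galnac2, a sialyltransferase, by 1.21 ± 0.08. Of 251 solute carriers 11 rose and 20 fell, a share of 12.4%, near that of all genes. The zinc importer Slc39a8 rose by 2.47 ± 0.26, while Slc46a3 fell by 2.18 ± 0.21 and the GABA transporter Slc6a13 by 2.10 ± 0.38. Slc39a8 was well above background on only 1 sh-Control array and Slc6a13 on 2 sh-SIRT1 arrays, so the sizes of these 2 differences are uncertain. Of 306 zinc finger genes named Zfp 25 rose and 10 fell (median 0.03), a share of 11.4%, also near that of all genes. Of 79 cytosolic ribosomal protein genes Rpl3l rose and Rpl39l fell (2.53%), and of 5 Rhox genes 0 passed in limma.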
